A study of Mus musculus with 28 samples.

Results

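BPAC colon organoids were compared with and without 4-hydroxytamoxifen (4-HT), which makes a tamoxifen-dependent Cre recombinase enter the nucleus and cut at loxP sites. The organoids were grown from the colon epithelium of C57BL/6N mice that carried VillinCreERT2, in which the Villin promoter drives Cre in gut epithelium. They also carried 1 allele of Braf floxV600E, 1 allele of Trp53 LSL-R172H and 2 alleles of APC flox. After recombination the first makes an activated BRAF kinase, the second a mutant p53, and the third leaves no intact Apc. Before it the Trp53 LSL allele is held silent by a stop cassette, so the EtOH-treated organoids were heterozygous for Trp53 and not wild type.

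The comparison used all 8 BPAC samples of the 28 in the series, 4 treated with 4-HT and 4 with ethanol (EtOH), the solvent. Per the labels 4-HT was given at 3.5 µM for 24 hours, with RNA harvested 3 days after. The samples came from 2 donor mice, Col287 and Col312, each with 2 passages in culture that are called duplicates 1 and 2 here. Each of the 4 cultures gave 1 sample of each treatment, and no group of the series received 4-HT without floxed alleles, so the drug and the recombination cannot be told apart. The culture medium held Wnt3a, R-spondin-1, Noggin, EGF and CHIR99021, an inhibitor of GSK3, in both arms. Every sample was from bulk RNA, in which fewer cells of a type and less RNA per cell cannot be told apart.

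The colon epithelium renews itself from stem cells at the base of its crypts, where Wnt signals keep beta-catenin stable. APC is part of the complex that degrades beta-catenin, and its loss turns on Wnt target genes without a ligand. BRAF passes signals from growth factor receptors through MEK to ERK, and the V600E form does so without a receptor. ERK induces its own inhibitors, the Sprouty and DUSP proteins. p53 halts the cell cycle and induces cell death after DNA damage, and R172H is a hotspot mutant that has lost most of that function. Cells that leave the crypt base become absorptive colonocytes, or secretory cells of the goblet, enteroendocrine and tuft lineages.

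Between 20577276 and 38984515 reads per BPAC sample were counted on genes. The 4-HT samples of duplicate 1 were the deepest, at 38984515 and 38877844 reads, against 20577276 and 21941141 in the EtOH samples of that duplicate. TMM scaling factors ran from 0.905 to 0.970 with EtOH and from 1.06 to 1.09 with 4-HT. Transcripts of the mitochondrial genome took 1.19 to 2.72% of the counts with EtOH and 0.562 to 0.957% with 4-HT. The 50 most abundant genes took 16.8 to 19.2% and 12.2 to 13.2%. The epithelial markers Epcam, Cdh1, Krt8 and Vil1 were read in every sample, with the lowest mean, 586 CPM (read counts scaled to a fixed library total, with TMM factors), for Vil1 with 4-HT. Of 10 fibroblast markers only Pdgfrb was listed among the genes counted, at 7.21 ± 3.97 CPM with EtOH and 0.979 ± 0.794 CPM with 4-HT. The female-specific transcript Xist was read in both treatments of Col312, and Y-linked transcripts in both treatments of Col287. The sex of each donor's samples thus matched across treatments, which does not tell donors of the same sex apart. With every sample thinned to 20577276 reads 5964 genes passed the test described below, against 6089 with all reads. The part of the mitochondrial share and of Pdgfrb-expressing cells in the results was not tested.

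All 3 targeted genes were listed. The Trp53 transcript (chromosome 11, 69580359 to 69591873, plus strand in GRCm38) stood at 51.4, 60.1, 52.9 and 52.6 CPM with EtOH and at 209.6, 227, 148 and 190.1 CPM with 4-HT. Here and below, values per sample are in the order Col287 duplicate 1, Col312 duplicate 1, Col287 duplicate 2 and Col312 duplicate 2, which are called cultures 1 to 4. The 2 arms did not overlap, which was so for 44.9% of all genes tested. The log2 fold change (4-HT over EtOH) was 1.83 (SE 0.11, adjusted p = 6.84e-12, edgeR's quasi-likelihood test with Benjamini-Hochberg adjustment over all genes). Counts per gene do not separate the mutant from the normal Trp53 transcript. The Apc transcript (chromosome 18, 34220924 to 34322552, plus strand) rose from 28.5, 32.7, 39.9 and 41.3 CPM to 53.7, 53.7, 64.4 and 73.6 CPM, a log2 fold change of 0.78 (SE 0.17, adjusted p = 3.32e-04). The floxed allele loses exon 14, and most of the gene is still transcribed, so this count is no check of the deletion. The Braf transcript (chromosome 6, 39603237 to 39725463, minus strand) stood at 21.2, 24.3, 25.4 and 21.8 CPM with EtOH and 22.8, 22.9, 22.9 and 23.4 CPM with 4-HT. Its log2 fold change was -0.01 (SE 0.086). The Braf allele is read from its own promoter before and after recombination, so this count is no check of it.

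**Figure D1:**
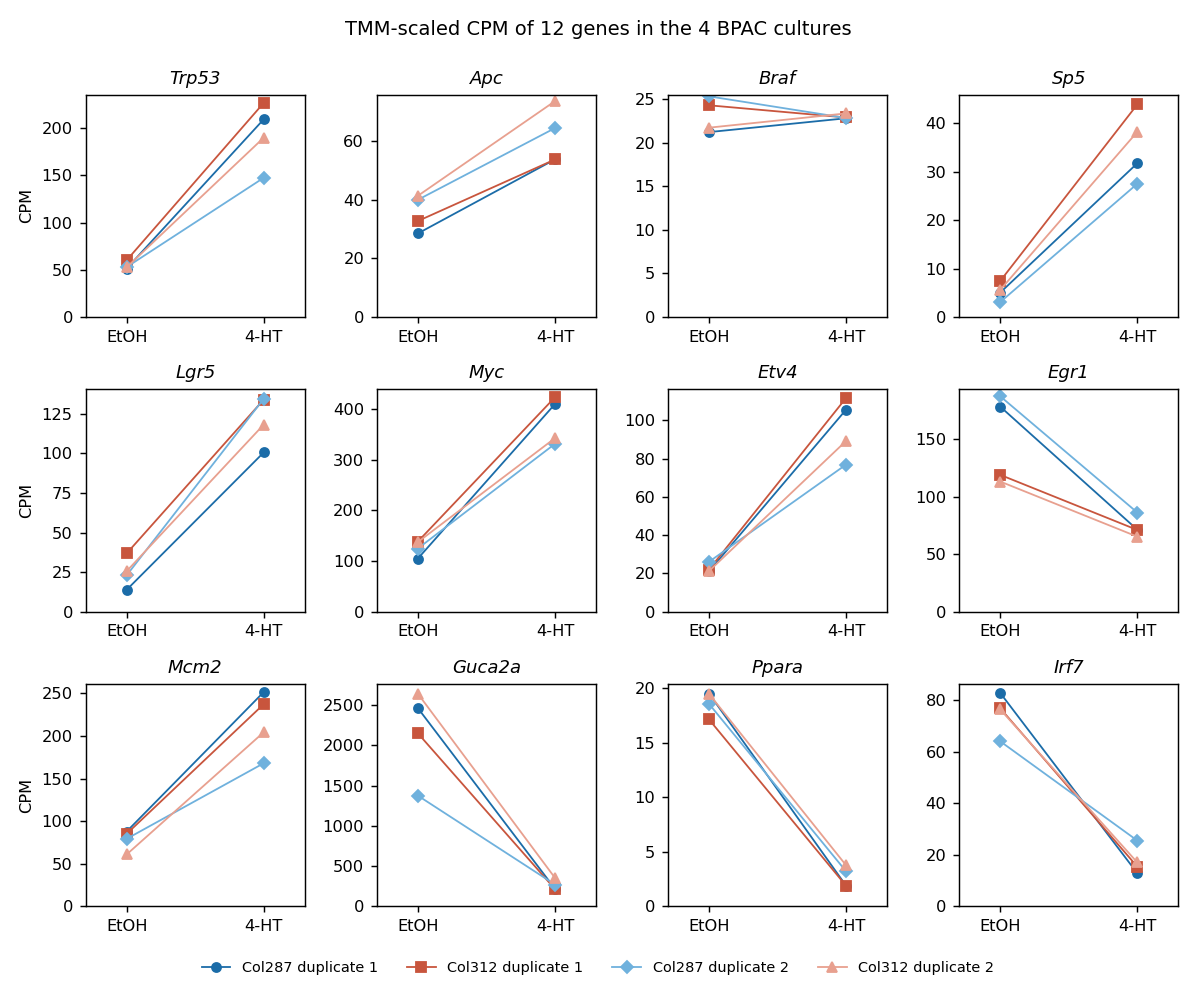
TMM-scaled CPM (linear axes from 0) of 12 genes with EtOH and with 4-HT, with 1 line and marker for each of the 4 BPAC cultures. Braf lay between 21.2 and 25.4 CPM in all 8 samples, and in each of the other 11 panels all 4 lines ran the same way and the 2 arms did not overlap. Arms without overlap were seen for 44.9% of all genes tested.

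Of 13519 genes tested, 6089 passed an adjusted p of 0.01, which is 45% of them. A total of 2979 genes rose (22%) and 3110 fell (23%). Counts of genes that rose or fell in a list are to be read against these 2 shares. At least a 2-fold change was seen for 749 of the genes that rose (5.54% of all tested) and 1433 of those that fell (10.6%), and at least an 8-fold change for 27 and 154. The CPM values of the 2 arms did not overlap for 6070 of all genes tested (44.9%), with 4-HT above for 3040 (22.5%) and below for 3030 (22.4%). The change had the same sign in all 4 cultures for 5966 of the 6089 genes (98%). These genes were called on the same 4 cultures, so this share is no separate evidence that the changes replicate. With the culture as a replicate block in the fit, 7358 genes passed (54.4%), 3609 up (26.7%) and 3749 down (27.7%). Fitting only the samples of duplicate 1 gave 5868 calls, and only those of duplicate 2 gave 2997. With library size in place of TMM scaling, 4331 genes rose and 2038 fell, and this scaling moved the median log2 fold change of all genes from -0.04 to 0.18. The first principal component of the 8 samples held 63.9% of their variance and separated the treatments, and the second held 15.8% and separated the donors.

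**Figure D2:**
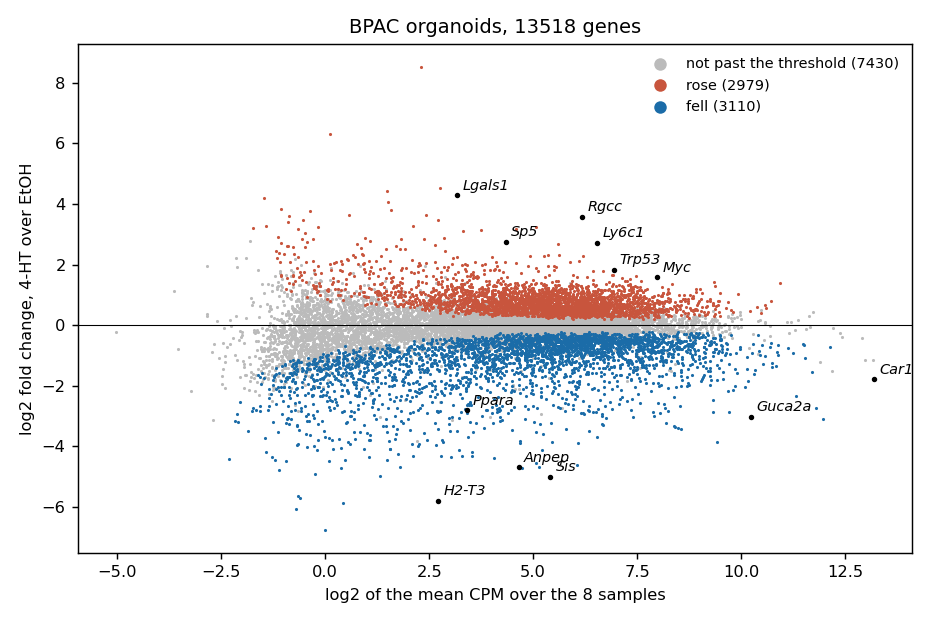
The log2 fold change (4-HT over EtOH) of 13518 genes with a count in BPAC samples, against the log2 of their mean CPM. Genes that rose (2979, red) and fell (3110, blue) past an adjusted p of 0.01 are coloured, and 154 genes fell and 27 rose by at least 8-fold.

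Among protein-coding genes with no overlap between the arms, the largest rises were mostly of genes near 0 with EtOH. Ly6c2, a GPI-anchored surface protein of the Ly6 family, was at 0, 0.0470, 0 and 0.0420 CPM with EtOH and at 10.01, 6.16, 16.2 and 7.18 CPM with 4-HT. Ehd3, a membrane trafficking protein, was at 0.107, 0, 0 and 0 CPM and at 2.61, 2.14, 1.64 and 2.17 CPM. Both rested on at most 2 reads in any EtOH sample, so no fold is given. Lgals1, the secreted lectin galectin-1, rose from 0.803, 1.08, 0.404 and 1.22 CPM to 16.1, 24.4, 11.3 and 16.2 CPM (log2 fold change 4.28, SE 0.36, adjusted p = 1.04e-09). Rgcc, a regulator of the cell cycle, was the most abundant of the 15 genes with the largest rises, and it went from 12.6, 11.7, 10.1 and 10.5 CPM to 156, 142, 132 and 104 CPM (3.57, SE 0.28, adjusted p = 2.41e-10). The others included Pthlh, which encodes a hormone related to parathyroid hormone (3.62), the hedgehog ligand Dhh (3.48), the histone deiminase Padi4 (4.43), and the neuronal pentraxin Nptx2 (3.46). The remaining 7 were Pcolce2, Nat8l, Msx3, Krt39, Faim2, Grap and Pdcd1, the last with at most 2 reads in any EtOH sample.

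Among the 15 largest falls, Sis, the brush border enzyme sucrase-isomaltase, fell from 106, 35.3, 86 and 103 CPM to 1.67, 0.928, 4.47 and 3.45 CPM (log2 fold change -5.01, SE 0.52, adjusted p = 1.88e-08). The peptidases Anpep (-4.68) and Enpep (-4.61) fell with it. So did the cytochrome P450 Cyp2c68 (-4.67), the sugar phosphate carrier Slc37a2 (-4.72) and the serotonin transporter Slc6a4 (-4.67). H2-T3, a nonclassical MHC class I gene, fell from 11.2, 14.7, 9.49 and 16.1 CPM to 0.0242, 0.119, 0.501 and 0.342 CPM (-5.79, SE 0.52, adjusted p = 2.40e-09). Slco2b1, a carrier of organic anions, was at 1.07, 2.63, 1.62 and 2.52 CPM with EtOH and at 0, 0, 0 and 0.0621 CPM with 4-HT. It was read in 1 of the 4 samples with 4-HT, by 2 reads. Slco2b1, Ckmt2, Cyp2f2, Hmcn1 and Cntn3 had at most 3 reads in any sample with 4-HT and get no fold. The other 3 were Gm8909, which is similar in sequence to MHC class I genes so that reads may be shared, Olfr165 and Prr5l.

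Wnt target and feedback genes rose. Of the 23 listed, 20 rose, 3 did not pass and none fell, with a median log2 fold change of 1.36 beside -0.04 for all genes tested. Sp5, a transcription factor induced directly by beta-catenin, had the largest change, from 5.03, 7.42, 3.07 and 5.59 CPM to 31.7, 43.9, 27.5 and 38.2 CPM (2.75, SE 0.29, adjusted p = 2.29e-08). The lowest 4-HT sample was more than 3 times the highest EtOH sample. The transcription factors that beta-catenin binds rose too. Tcf7 went from 11.4, 9.35, 9.86 and 6.68 CPM to 40.5, 35.1, 41.1 and 36.6 CPM (2.04, SE 0.18), and Lef1 from 0.321, 0.376, 0.606 and 0.462 CPM to 1.04, 1.17, 3.31 and 1.99 CPM (2.05, SE 0.37). The feedback inhibitors Notum (1.89), Nkd1 (1.91), Apcdd1 (1.99), Znrf3 (0.79) and Rnf43 (0.80) rose. Axin2, a scaffold of the same complex as APC and a standard readout of Wnt activity, rose by less, from 24.4, 55.1, 46.6 and 39.6 CPM to 55, 78.7, 71.5 and 78 CPM (0.77, SE 0.19, adjusted p = 0.00118), and its arms overlapped. Myc went from 105, 138, 125 and 137 CPM to 409.7, 423, 331 and 342 CPM (1.58, SE 0.18). The guidance receptors Ephb2 (0.77) and Ephb3 (1.78), Sox9 (1.06), Cd44 (1.35) and the protease Mmp7 (1.36) rose. Wif1, at -0.75 (SE 0.55), Kremen1, at -0.32, and Zfp703, at 0.21, did not pass. The call of Notum (without culture 1, 3 or 4, adjusted p up to 0.0750), Axin2 (without culture 4, adjusted p up to 0.0123) and Mmp7 (without culture 2, adjusted p up to 0.0128) did not hold with 1 culture left out.

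The letters CTTTGAT, the core of the site bound by TCF and LEF proteins, were searched on both strands in RefSeq promoter windows of 300 bases (250 before a gene's start and 50 after, GRCm38.p6), which matched 10114 of the genes tested. They occurred in 2.7% of windows of genes that rose, 2.11% of those that fell and 2.59% of all 12921. Among Wnt target genes 4 of 22 windows held them. The 2 stretches of 100 bases shown are from the genes of this list with the 2 largest changes, Sp5 at chr2:70474772-70474871 on the plus strand and Tnfrsf19 at chr14:61038137-61038236 on the minus strand, 5′ to 3′ along the gene, with the match in capitals. The capitals of Tnfrsf19 are the reverse complement of the letters searched. The match starts 104 bases before the start of Sp5 and 202 before that of Tnfrsf19.
Sp5: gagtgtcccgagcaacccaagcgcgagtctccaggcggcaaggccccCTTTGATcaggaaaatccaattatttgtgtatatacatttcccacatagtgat
Tnfrsf19: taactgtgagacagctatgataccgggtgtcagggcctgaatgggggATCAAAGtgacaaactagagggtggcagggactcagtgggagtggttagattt

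Stem cell genes mostly rose, with 12 of 19 listed up and 7 not past the threshold (median 0.83). Lgr5, Ascl2, Axin2 and Tnfrsf19 are also in the Wnt list. Lgr5, the R-spondin receptor that marks crypt base stem cells, rose from 13.8, 36.8, 23 and 25.6 CPM to 101, 134, 135 and 118 CPM (2.3, SE 0.27, adjusted p = 1.40e-07). Ascl2, the transcription factor that maintains these cells, rose from 11.6, 17.7, 9.61 and 12.9 CPM to 63.2, 64.3, 70.4 and 56.1 CPM (2.29, SE 0.28). All 4 cultures moved the same way for both. Ptpro (3.09), Tnfrsf19 (2.64), Cdca7 (1.34), Lrig1 (0.94) and Smoc2 (0.92) rose as well. Igfbp4, which binds insulin-like growth factors, rose from 2.52, 3.01, 4.68 and 0.756 CPM to 12.9, 39.8, 28.3 and 15.8 CPM (3.14, SE 0.81, adjusted p = 0.00193). Aqp4, a water channel, was lower in every culture with 4-HT, at 161, 80.6, 310.4 and 82.8 CPM with EtOH and 73.6, 14.4, 129 and 37.4 CPM with 4-HT. Its arms overlapped, Col287 was above Col312 in each treatment and duplicate, and it did not pass (log2 fold change -1.32, adjusted p = 0.0255), though it passed with the replicate block (adjusted p = 1.61e-05). Of 22 intestinal stem cell genes that the study displayed for these organoids, which are not independent evidence of direction, 12 rose and 2, Scn2b (-1.39) and Vav3 (-0.58), fell. The rises were 7 to 9 with single cultures left out, 7 of them without culture 4, and without culture 1 or 2 the falls were 1. With 1 culture left out, Smoc2 (without culture 1 or 4, adjusted p up to 0.0242), Igfbp4 (without culture 2, adjusted p up to 0.0161) and Vav3 (without culture 1 or 2, adjusted p up to 0.0443) no longer passed.

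ERK target and feedback genes split. Of 26 listed, 13 rose, 6 fell and 7 did not pass (median 0.51), with 3 falls without culture 1, 1 without donor Col287, and 2 with library size in place of TMM scaling. Over all genes 22% rose and 23% fell. The ETS transcription factor Etv4 rose from 21.1, 22, 26.1 and 21.2 CPM to 106, 112, 76.9 and 89.2 CPM (2.08, SE 0.15, adjusted p = 8.03e-11), and its relative Etv5 by 1.32. Among the feedback inhibitors, Dusp6, the ERK phosphatase, went from 84.7, 51.2, 102 and 69.2 CPM to 133, 138, 140.2 and 120.4 CPM (0.79, SE 0.16, adjusted p = 1.75e-04). Dusp7 (1.49), Spry1 (1.01), Spry4 (1.12) and Spred1 (0.63) rose with it. So did Phlda1 (1.12), Phlda2 (1.73), Ier3 (1.66), Ccnd1 (0.72) and the AP-1 subunit Fosl1 (1.35). Other inhibitors of the same pathway fell. The nuclear phosphatase Dusp5 went from 93.7, 56.6, 73.3 and 60.5 CPM to 28.3, 35.4, 35.9 and 31.4 CPM (-1.12, SE 0.20, adjusted p = 3.35e-05), and Spry2 from 9.47, 8.08, 11.4 and 9.70 CPM to 6.14, 6.73, 7.04 and 7.27 CPM (-0.51, SE 0.11). Both had no overlap between arms, which held for 44.9% of all genes tested. Egr1, an immediate early transcription factor, fell from 178, 119, 187 and 113 CPM to 71.2, 71, 86.2 and 65.2 CPM (-1.02, SE 0.27, adjusted p = 0.00227), and Emp1 (-1.01), Il1rn (-0.47) and Errfi1 (-0.41) also fell. Il1rn did not pass with the replicate block (adjusted p = 0.0144). Dusp4 (0.39, SE 0.20) and Fos (-0.56, SE 0.23) did not pass. In the RefSeq promoter windows the letters TGANTCA, a core of the AP-1 site, occurred in 4.22% of windows of genes that rose and 7.0% of those that fell, against 5.56% of all. The letters ACCGGAAGT, a core of the ETS site, occurred in 2.83% and 0.826%, against 2.23% of all. Of the 23 windows of ERK genes 3 held the first and none the second. With the replicate block Dusp4 (adjusted p = 0.00624) and Fos (adjusted p = 5.98e-05) also passed. That fit gave 15 rises and 7 falls of ERK genes, the blocked fit of the 8 BPAC samples alone 13 and 5, and counts summed by donor 11 and 5. Leaving out 1 culture ended the call of Ccnd1 (without culture 1, 2 or 3, adjusted p up to 0.0348), Egr1 (without culture 1 or 3, adjusted p up to 0.0217), Il1rn (without culture 1, 2 or 4, adjusted p up to 0.180) and Errfi1 (without culture 1, 3 or 4, adjusted p up to 0.0790).

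The receptors upstream of this pathway fell. Of 9 listed EGF receptor and ligand genes 1 rose, 4 fell and 4 did not pass. Erbb3 went from 389, 329, 482 and 376 CPM to 155, 139, 219 and 199 CPM (-1.15, SE 0.13, adjusted p = 7.41e-08), and Erbb2 (-0.88) and Egfr (-0.59) were lower in each culture. Of the ligands, Hbegf fell (-0.94), betacellulin, Btc, rose (0.71), and Areg (0.04, SE 0.15) and Ereg (0.12, SE 0.42) did not pass. A call was lost on leaving out 1 culture for Egfr (without culture 1, adjusted p up to 0.0227).

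Target genes of p53 moved in both directions, 9 up, 7 down and 12 not past the threshold of 28 listed (median 0.34). Of all genes tested 22% rose and 23% fell. The counts were 5 up and 3 down without culture 1. Mdm2, which degrades p53, rose from 62.8, 65.6, 54.9 and 65.6 CPM to 85.3, 93.8, 90.8 and 91.1 CPM (0.54, SE 0.092, adjusted p = 2.68e-05). The stress cytokine Gdf15 rose from 15.5, 15.7, 16.9 and 14.5 CPM to 47.6, 69.5, 60.3 and 39 CPM (1.79, SE 0.23), with the proapoptotic gene Bax (0.66), Phlda3 (1.42), Plk2 (1.22) and Aen (1.08). Cdkn1a, which encodes the cell cycle inhibitor p21, was lower in every culture, at 699.8, 449, 816 and 486 CPM and then 276, 309, 471 and 287 CPM (-0.87, SE 0.21, adjusted p = 0.00113). The death receptor Fas fell from 6.64, 5.83, 6.54 and 6.85 CPM to 0.943, 0.904, 2.04 and 1.40 CPM (-2.3, SE 0.24, adjusted p = 1.64e-08), and Pmaip1 (-0.91), Dcxr (-0.88), Sesn1 (-0.78), Btg2 (-0.48) and Perp (-0.38) fell. Bbc3, which encodes the cell death protein PUMA, did not pass (0.11, SE 0.17). Not every call held with 1 culture left out, the exceptions being Bax (without culture 1, adjusted p up to 0.0139), Phlda3 (without culture 1, adjusted p up to 0.0137), Cdkn1a (without culture 1, adjusted p up to 0.0192), Pmaip1 (without culture 1 or 4, adjusted p up to 0.0127), Btg2 (without culture 1, adjusted p up to 0.0137) and Perp (without culture 1, adjusted p up to 0.0103).

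Of 11 listed CDK inhibitors and senescence genes 4 fell and 1 rose. Cdkn2b, which encodes p15 and holds back CDK4 and CDK6, fell from 237, 245, 245 and 290.2 CPM to 51.9, 73, 89.9 and 78.1 CPM (-1.8, SE 0.13, adjusted p = 1.28e-10). The lowest EtOH sample was more than 2 times the highest 4-HT sample. Cdkn1c fell too (-0.80). Cdkn2a was low in both arms (1.75 ± 2.19 CPM with EtOH and 1.65 ± 1.32 CPM with 4-HT) and did not pass (-0.09, SE 0.68), and the counts do not separate its 2 products. Lmnb1, a lamin that falls in senescent cells, rose (1.0).

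Genes of DNA replication, mitosis and ribosome assembly rose almost throughout. For DNA replication 24 of 26 listed rose (median 1.11), for mitosis 21 of 22 (0.97) and for ribosome biogenesis 28 of 30 (1.08), and none of the 3 lists held a gene that fell past the threshold. The replicative helicase subunit Mcm2 went from 87.8, 85.1, 79.3 and 60.9 CPM to 252, 238, 168 and 205 CPM (1.46, SE 0.16, adjusted p = 4.42e-08). The other listed subunits, Mcm3 to Mcm7, changed by between 1.19 and 1.42, and the loading factor Cdc6 by 1.41. Ccne2 was the lowest of its list, at -0.66 (adjusted p = 0.0115), while its paralog Ccne1 rose (1.14). In mitosis, Bub1 (1.35) and Ccnb1 (1.28) rose the most. Mki67, the gene of the proliferation antigen Ki-67, rose by the least of those that passed, from 94.1, 129, 129 and 127 CPM to 154, 153, 176 and 173 CPM (0.45, SE 0.14, adjusted p = 0.00883). In the nucleolus, Polr1b, a subunit of RNA polymerase I, had the largest rise (1.3), followed by Wdr43 (1.29) and Gnl3 (1.25), and Ncl, for nucleolin, went from 468 ± 58.5 CPM with EtOH to 978 ± 85.8 CPM with 4-HT (1.06, SE 0.11). The replicate block also brought Ccne2 (adjusted p = 6.46e-04) past the threshold. When single cultures were left out, the call was lost for Mki67 (without culture 1, 2, 3 or 4, adjusted p up to 0.0485).

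The letters TTTCCCGC, a core of the E2F site, occurred in 3.15% of promoter windows of genes that rose and 0.859% of genes that fell, against 1.93% of all windows. Among the windows of replication genes 5 of 23 held them. The letters CACGTG, the E-box bound by MYC among other factors, occurred in 11.5% and 8.42%, against 9.7% of all, and in 7 of 27 windows of ribosome biogenesis genes. A match is a description of the letters and shows no binding. Shown are 2 replication genes with a match before the start, Cdc6 at chr11:98907967-98908066 on the plus strand and Mcm7 at chr5:138171995-138172094 on the minus strand, and the nucleolar methyltransferase Nop2 at chr6:125131776-125131875 on the plus strand. The match starts 138 bases before the start of Cdc6, 165 before that of Mcm7 and 60 before that of Nop2. In the first 2 the capitals are the reverse complement of the letters searched.
Cdc6: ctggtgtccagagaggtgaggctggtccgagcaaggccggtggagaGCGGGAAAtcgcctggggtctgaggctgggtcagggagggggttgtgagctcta
Mcm7: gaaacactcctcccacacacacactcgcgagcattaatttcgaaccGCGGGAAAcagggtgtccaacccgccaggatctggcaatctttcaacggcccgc
Nop2: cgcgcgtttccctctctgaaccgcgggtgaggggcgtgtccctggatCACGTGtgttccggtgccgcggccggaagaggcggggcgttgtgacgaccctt

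Every absorptive colonocyte gene that was listed fell. The 32 genes had a median log2 fold change of -2.42, and their summed level went from between 35510 and 45880 CPM with EtOH to between 8714 and 17020 CPM with 4-HT. Guca2a, the gut hormone guanylin, was among the most abundant and went from 2464, 2151, 1376 and 2643 CPM to 219, 215, 271 and 354 CPM (-3.03, SE 0.20, adjusted p = 2.90e-11). The lowest EtOH sample was more than 3 times the highest 4-HT sample. Alpi, intestinal alkaline phosphatase, fell from 551, 349.6, 542 and 498 CPM to 64.9, 39.7, 128 and 90.3 CPM (-2.59, SE 0.27, adjusted p = 2.64e-08). Carriers fell with the enzymes, among them the butyrate carrier Slc5a8 (-3.5), the chloride and bicarbonate exchanger Slc26a3 (-2.58) and the peptide carrier Slc15a1 (-2.82). The carbonic anhydrases Car1 (-1.78), Car2 (-1.03) and Car4 (-2.57) fell. So did the keratin of mature surface cells, Krt20 (-2.14), and the brush border proteins Cdhr5 (-2.04), Myo1a (-2.02) and Espn (-2.43). Vil1, whose promoter drives Cre in these mice, had the smallest fall of the list, from 1128 ± 251 CPM with EtOH to 586 ± 66.8 CPM with 4-HT (-0.95, SE 0.13). The call of Car2 (without culture 1, adjusted p up to 0.0152) did not hold with 1 culture left out.

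Aqp8, a water channel of surface colonocytes, had a wide spread between samples, at 1954, 573, 3049 and 346 CPM with EtOH and 161, 19.2, 528 and 98.9 CPM with 4-HT. Its level differed between the donors in both arms, and each culture fell (-2.88, SE 0.88, adjusted p = 0.00736). With 1 culture left out, Aqp8 (without culture 1, 2 or 4, adjusted p up to 0.0422) no longer passed.

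Genes of fatty acid oxidation and PPAR targets fell in 19 of 23 listed cases, and none rose (median -0.87). Ppara, the nuclear receptor that drives many of these genes, went from 19.5, 17.1, 18.6 and 19.5 CPM to 1.89, 1.88, 3.20 and 3.76 CPM (-2.81, SE 0.22, adjusted p = 3.84e-10). Its arms did not overlap, which was so for 44.9% of all genes tested. The carnitine shuttle genes Slc25a20 (-1.98), Cpt1a (-1.16) and Cpt2 (-0.69) fell, as did the coactivator Ppargc1a (-1.36). Pparg was at -0.28 (SE 0.15) and did not pass. With the replicate block Pparg (adjusted p = 0.00456) also passed.

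Of 26 transcription factors of intestinal identity 12 fell, 2 rose and 12 did not pass (median -0.51), with 1 rise without culture 1, 2 or 4. Of those that passed, the bile acid receptor Nr1h4 (-1.84), the vitamin D receptor Vdr (-1.62) and Klf4, a factor of differentiated cells (-1.62), fell the most after Ppara. Hnf4g (-1.05) fell by more than its paralog Hnf4a (-0.48). Cdx1 fell (-0.47), while Cdx2 (-0.38, SE 0.22) and Klf5 (-0.13, SE 0.088) did not pass. Foxa1 (0.39) and Foxa2 (1.0), which act in secretory cells, rose. The letters CAAAGTCCA, a core of the HNF4 site, occurred in 1.02% of promoter windows of genes that fell, 0.277% of genes that rose and 0.472% of all. Of the absorptive genes 2 of 31 windows held them. Alpi is shown at chr1:87101607-87101706 on the minus strand, where the match starts 19 bases before the start, beside Cyp2c68 at chr19:39741125-39741224 on the minus strand, where it starts 77 bases before. Leaving out 1 culture ended the call of Cdx1 (without culture 2 or 3, adjusted p up to 0.0355) and Foxa1 (without culture 1, 2 or 4, adjusted p up to 0.0273).
Alpi: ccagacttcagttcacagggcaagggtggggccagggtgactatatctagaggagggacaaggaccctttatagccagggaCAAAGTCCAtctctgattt
Cyp2c68: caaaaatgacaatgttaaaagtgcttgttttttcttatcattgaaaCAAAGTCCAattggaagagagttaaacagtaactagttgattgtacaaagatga

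Of 24 goblet and secretory genes listed, 10 rose, 4 fell and 10 did not pass. Transcription factors of the lineage were among those that rose. Atoh1, which commits cells to the secretory fate, went from 12.4, 21.2, 19 and 16.8 CPM to 51, 45.8, 25 and 48 CPM (1.29, SE 0.21, adjusted p = 1.02e-05). Spdef, which drives goblet cell maturation, went from 19.2, 25.1, 19.3 and 16 CPM to 73.4, 88.2, 26.7 and 63.1 CPM (1.66, SE 0.24). In both, Col287 of duplicate 2 had the lowest 4-HT value. Foxa3 (1.5), Creb3l1 (1.17) and Gfi1 (1.1) also rose, as did the folding enzyme Agr2 (1.3) and the antimicrobial Ang4 (1.88). The trefoil peptide Tff3 fell from 375, 322, 307 and 561 CPM to 157, 132, 160.2 and 225 CPM (-1.21, SE 0.22, adjusted p = 4.90e-05), with Fcgbp (-1.68), Zg16 (-1.5) and Capn9 (-1.19). Muc2, the main mucin, stood at 522, 531, 1075 and 747 CPM and 446, 659.6, 392 and 792 CPM, changed in different directions among the cultures and did not pass (-0.33, SE 0.25). A call was lost on leaving out 1 culture for Gfi1 (without culture 1 or 4, adjusted p up to 0.0228) and Zg16 (without culture 1 or 4, adjusted p up to 0.0305).

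Of 21 enteroendocrine genes listed, 3 rose, 3 fell and 15 did not pass, beside 22% up and 23% down for all genes. Without culture 1 the falls were 1. Neurog3, the factor that starts this lineage, rose from 3.32, 3.15, 2.10 and 3.49 CPM to 18.6, 16.2, 7.24 and 13.7 CPM (2.21, SE 0.25, adjusted p = 7.39e-08). Insm1 (1.11) and Tac1, the substance P precursor (1.74), rose. Gcg, the proglucagon gene (-1.41, adjusted p = 0.00987), Cpe (-0.62) and Pcsk1 (-0.96) fell. The hormone Pyy was at 472, 87.6, 335 and 61.9 CPM with EtOH and 68, 17, 146 and 35.5 CPM with 4-HT, far higher in Col287 than in Col312. It did not pass (-1.85, SE 0.71, adjusted p = 0.0303), nor did Insl5 (-2.12, SE 0.72). The falls were 0 with library size alone, 1 with counts summed by donor and 8 in a blocked fit of the 8 BPAC samples alone. With the replicate block in the fit of all samples 10 of the 21 fell, Pyy and Insl5 among them (adjusted p = 4.60e-05 and 6.16e-05). Not every call held with 1 culture left out, the exceptions being Insm1 (without culture 1, 2 or 4, adjusted p up to 0.0414), Gcg (without culture 1, 2, 3 or 4, adjusted p up to 0.103) and Pcsk1 (without culture 1 or 4, adjusted p up to 0.0662).

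Tuft cell genes were at a summed 33.9 to 47.5 CPM with EtOH and 16.3 to 24.8 CPM with 4-HT. Of 13 listed, 5 fell and none rose, with 1 fall without culture 1 and 3 without culture 4. Dclk1, a kinase used as a tuft cell marker, went from 7.06, 4.84, 7.79 and 11 CPM to 1.14, 1.38, 2.90 and 5.38 CPM (-1.52, SE 0.39, adjusted p = 0.00167), with Sh2d6 (-1.75), Rgs13 (-1.44) and Hpgds (-1.14). Pou2f3, the factor that defines the lineage, was near 1 CPM and did not pass (-0.61, SE 0.42). When single cultures were left out, the call was lost for Dclk1 (without culture 1, adjusted p up to 0.0128), Sh2d6 (without culture 1 or 4, adjusted p up to 0.0459) and Rgs13 (without culture 1 or 4, adjusted p up to 0.0262).

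**Figure D3:**
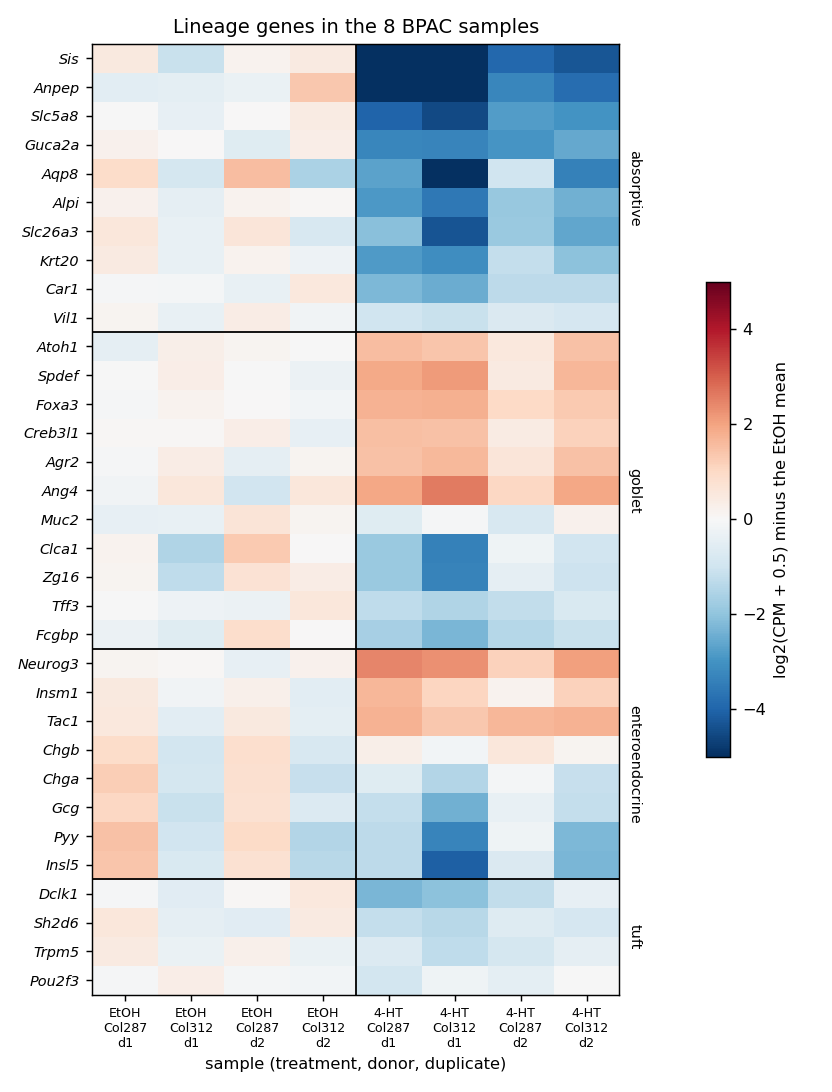
Heat map of 33 lineage genes in the 8 BPAC samples, as log2(CPM + 0.5) minus the gene's mean over the EtOH samples, with red above and blue below it and colours limited at 5. Absorptive genes are blue in all 4-HT columns, Atoh1, Spdef and Neurog3 are red there, and Pyy, Insl5 and Aqp8 differ between the donors within both arms.

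Of 24 fetal-like and regeneration genes 6 rose, 3 fell and 15 did not pass (median 0.05), beside 22% up and 23% down for all genes tested. Without culture 1 the falls were 1. The replicate block gave 8 up and 5 down, and library size alone 7 up and 1 down. Ly6a, which encodes the surface protein Sca-1 of regenerating epithelium, rose from 679, 625, 482 and 759 CPM to 1282, 1203, 1454 and 1243 CPM (1.03, SE 0.12, adjusted p = 1.23e-07). Ly6c1, of the same gene family, rose from 25.6, 21.3, 23.6 and 26.8 CPM to 147, 123, 249.7 and 125 CPM (2.73, SE 0.23, adjusted p = 1.04e-09). Ly6c1 and Ly6c2 are near-identical copies, and how reads shared by both were counted is not given in the sources used here. Slc4a11 (2.3) and the alarmin Il33 (1.72) rose. Pdzk1ip1 fell (-2.44), with Il1rn. Clu, a marker of revival stem cells, was at 57.6, 315, 43.7 and 215 CPM and 48.4, 169, 28.9 and 98.9 CPM, higher in Col312, and did not pass (-0.87, SE 0.55). Anxa1 (0.07, SE 0.22) did not pass either. The call of Il33 (without culture 1, 2 or 3, adjusted p up to 0.0278) did not hold with 1 culture left out.

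For YAP and TEAD genes, 6 of 17 listed rose and 2 fell, where 22% of all genes rose and 23% fell. Yap1 itself (0.75), Tead2 (1.6) and Tead4 (1.28) rose, while the usual target Ccn1 did not pass (-0.24, SE 0.26) and the kinase Lats2 fell (-0.89). Of 16 gastric and serrated lesion genes 5 were listed and none passed. The highest was Vsig1 (1.04, adjusted p = 0.0280) and the lowest Anxa10 (-0.69). Vsig1 passed with the replicate block (adjusted p = 1.69e-04).

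In the Notch pathway 7 of 17 listed genes rose (4 without culture 4) and 1, the inhibitor Numb (-0.83), fell. The ligands Dll3 (2.32), Jag2 (1.38) and Dll4 (0.73) rose, with the glycosyltransferases Mfng (2.14) and Lfng (1.08), which modify Notch. Hes1, the classic target in progenitors, did not pass (0.31, SE 0.14). In the BMP and TGF-beta pathway 7 of 18 rose and 2 fell (1 without culture 1 or 2). For both pathways the shares over all genes were 22% up and 23% down. Tgfb1 rose from 6.05, 6.91, 6.91 and 5.21 CPM to 24.4, 28.3, 17.7 and 18.1 CPM (1.82, SE 0.17, adjusted p = 5.14e-09), and Bmp7 (1.83) and the decoy receptor Bambi (1.11) rose. Bmp2, a ligand made by mature colonocytes, fell from 196, 99.2, 308 and 109 CPM to 39.3, 25.3, 89.4 and 41.1 CPM (-1.87, SE 0.33, adjusted p = 3.64e-05), as did the inhibitor Smad7 (-0.93). Under the replicate block 4 of the 18 fell, in the blocked fit of BPAC alone 2 and with library size alone 1. The target Id1 did not pass (-0.23, SE 0.33). With 1 culture left out, Dll3 (without culture 4, adjusted p up to 0.0149), Dll4 (without culture 1, 2 or 4, adjusted p up to 0.0326) and Smad7 (without culture 1 or 2, adjusted p up to 0.0307) no longer passed.

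Interferon response and antigen presentation genes fell, 17 of 27 listed, with 1 that rose, Bst2 (0.51), and a median of -1.0. The transcription factor Irf7 went from 82.9, 77, 64.1 and 76.5 CPM to 12.9, 15.4, 25.5 and 17 CPM (-2.09, SE 0.16, adjusted p = 2.11e-10). B2m, the light chain of MHC class I, went from 232, 245, 248 and 317 CPM to 81.3, 90.00, 115 and 83.9 CPM (-1.49, SE 0.13, adjusted p = 2.12e-09). The heavy chains H2-K1 (-0.91) and H2-D1 (-0.80) fell, with the peptide loading proteins Tapbp (-1.39) and Tap2 (-1.37). Irf1 (-0.80), Ifit1 (-2.76) and Oasl2 (-2.14) fell, and Cd274, which encodes PD-L1, did not pass (0.32, SE 0.24). Reads of MHC genes can be shared between close copies. Leaving out 1 culture ended the call of Bst2 (without culture 3, adjusted p up to 0.0440).

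Of 15 epithelial chemokines and cytokines 6 fell and 3 rose, beside 23% down and 22% up for all genes. Ccl28, which draws IgA plasma cells, fell from 84, 66.8, 101 and 71.7 CPM to 16.9, 7.90, 28.1 and 13.6 CPM (-2.28, SE 0.24, adjusted p = 2.35e-08). Il18 (-2.23), Ccl25 (-1.32), Cx3cl1 (-1.2), Il15 (-1.03) and Cxcl16 (-0.93) fell, and Il33, Cxcl9 (1.44) and Lif (1.07) rose. The immune markers listed were 4 of 12, of which Itgam fell (-1.97). A call was lost on leaving out 1 culture for Cxcl9 (without culture 4, adjusted p up to 0.0154).

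Junction and epithelial genes mostly fell, 12 of 21 listed, and 1 rose, Cldn2 (0.44). Cldn8, which seals tight junctions of the distal colon, went from 36.9, 22.6, 59.2 and 42.5 CPM to 3.55, 4.00, 11.4 and 6.06 CPM (-2.7, SE 0.35, adjusted p = 6.10e-07). Cdh1, E-cadherin, fell by 0.64 and Epcam by 0.74 on the log2 scale. Vim did not pass (0.59, SE 0.30), and Zeb1, Zeb2, Snai1, Snai2 and Twist1 were not among the genes listed. Of 23 matrix and integrin genes 7 fell and 4 rose, the rises being 2 without culture 1 or 4 and 1 without culture 2. The laminin chains Lama3 (-1.02) and Lamb3 (-1.26) fell, with the integrin Itgb6 (-1.04), while Itga6 (0.54) and Itga5 (0.69) rose. Among cell death genes, 8 of 19 fell and 3 rose, with 5 falls without culture 1. The shares to set beside the matrix and cell death counts are 23% down and 22% up over all genes. Gsdmc4, a pore-forming gasdermin, went from 28.4, 15.5, 21.2 and 4.92 CPM to 1.52, 0.547, 1.17 and 0.777 CPM (-4.12, SE 0.66, adjusted p = 1.16e-05), and its close copies Gsdmc2 and Gsdmc3, which may share reads with it, also fell. Not every call held with 1 culture left out, the exceptions being Cldn2 (without culture 3, adjusted p up to 0.0236), Itga6 (without culture 3, adjusted p up to 0.0153) and Itga5 (without culture 1, 2 or 4, adjusted p up to 0.0393).

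Of 20 glycolysis genes 1 rose, Tigar (0.43), which is also in the p53 target list, and 1 fell, the lactate carrier Slc16a1 (-0.58). Over all genes 22% rose and 23% fell. The glycolysis counts were 4 and 3 with the replicate block, 2 and 1 when that fit held the BPAC samples alone, and 2 falls without culture 2 or 4. Ldha (-0.10, SE 0.30) and Pkm (0.43, SE 0.21) did not pass. For cholesterol synthesis 4 of 21 fell (1 without culture 1) and 1 rose. With the replicate block 10 of the 21 fell, in a blocked fit of the 8 BPAC samples alone 4, with counts summed by donor 2, and with library size alone 1 fell and 3 rose. Library size in place of TMM scaling gave 14 rises of p53 targets, 11 of Notch genes, 5 of cell death genes and 3 of junction genes, and 4 falls of matrix genes and 5 of cell death genes. The replicate block also brought Pkm (adjusted p = 0.00329) past the threshold. When single cultures were left out, the call was lost for Tigar (without culture 1, 2, 3 or 4, adjusted p up to 0.0394) and Slc16a1 (without culture 1, adjusted p up to 0.0195).

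**Figure D4:**
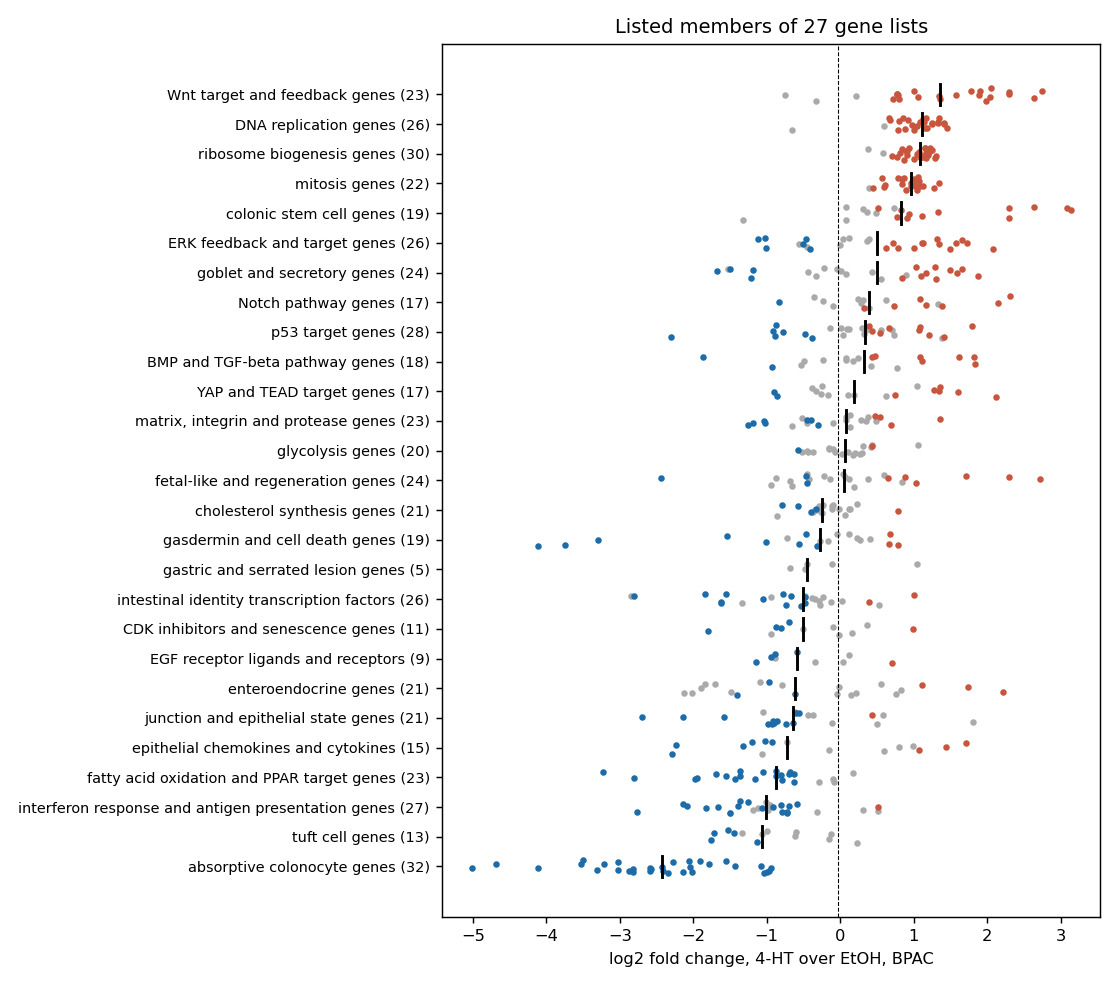
The log2 fold change (4-HT over EtOH) of the listed members of 27 gene lists in BPAC organoids, with the number listed in parentheses, a black bar at each list's median and a dashed line at the median of all genes. Red members rose, blue members fell and grey members did not pass. Absorptive colonocyte genes have the lowest median, -2.42, and Wnt target genes the highest, 1.36.

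The 4-HT change of BPAC organoids was then set against that of BAC organoids, which lack the Trp53 allele, and of PAC organoids, which lack the Braf allele. All 3 carry VillinCreERT2 and the floxed APC alleles. Each had 8 samples of 2 other donors, so genotype and donor cannot be told apart. Against BAC, no gene differed past the threshold by edgeR, 200 of 13519 had an unadjusted p under 0.05, and DESeq2 called 1. With the replicate block none passed by edgeR either, and 515 had an unadjusted p under 0.05. Without BPAC culture 3, 1 gene differed by edgeR. The gene with the smallest adjusted p was Trp53 itself, which rose by 1.83 on the log2 scale in BPAC and 0.97 in BAC (difference 0.86, adjusted p = 0.0627). Of the genes that rose in BPAC 83.9% also rose in BAC, which is 90.8% of those that rose in BAC (20.3% of all genes rose there and 21.5% fell), and for falls the shares were 81.6% and 87.3%. The target list of p53 had medians of 0.34 in BPAC, 0.22 in BAC and 0.17 in PAC.

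Against PAC, the change of 482 genes differed (3.57%), higher in BPAC for 232 (1.72%) and lower for 250 (1.85%). The 2 PAC samples of duplicate 1 with 4-HT both held Xist and Y-linked counts, Xist at 25.2 and 22.03 CPM and Ddx3y at 13.8 and 12.96 CPM. In the donors' other samples the lower of these 2 transcripts was at most 0.251 CPM. The counts of the 2 samples go against a label of 1 donor each, so their donor and culture labels are in doubt, and every PAC value fitted with the replicate block, by donor or by culture rests on those labels. Without the 2 samples 341 genes differed, 140 higher and 201 lower. Leaving out BPAC culture 1 left 167 genes and culture 4 left 268, while leaving out PAC culture 1, 3 or 4 left 236, 195 or 223. Without donor Col287 of BPAC 196 differed and without Col312 118. In duplicate 1 alone, with 2 samples per group, 175 genes differed, and in duplicate 2 alone 1. The fit with the replicate block, which takes the labels of the 2 samples as given, gave 1165. Of the genes that rose in BPAC 44% also rose in PAC, which is 86.8% of those that rose in PAC (11.2% of all genes rose there and 12.2% fell), and for falls the shares were 47.2% and 88.6%.

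Among the 5 genes with the largest higher change, Lgals1 (3.03, SE 0.49, adjusted p = 6.42e-04), Ly6c1 (2.08, SE 0.31), Arhgap45 (2.26) and Nptx2 (2.09) rose in BPAC. The other, Rbp7, did not pass in BPAC and had a log2 fold change of -1.88 in PAC. The 5 with the largest lower change were the sterol transporters Abcg8 (-3.94, SE 0.72, adjusted p = 0.00156) and Abcg5 (-3.73), Slco2b1, on too few reads for a value, H2-T3 (-3.77) and the nuclear receptor Nr2e3, with 1 to 6 reads in each BPAC sample with 4-HT. Abcg8 fell by 3.8 on the log2 scale in BPAC and was at 0.14 in PAC. The difference of Lgals1, Ly6c1, H2-T3 and Nr2e3 passed without each BPAC or PAC culture and without the 2 PAC samples. Each of the others was lost without at least 1 of these, given by culture number with the highest adjusted p: Arhgap45 (BPAC 1 or 4, PAC 1 or 3, the 2 PAC samples, up to 0.0151), Nptx2 (BPAC 1, 2 or 4, PAC 1, 2, 3 or 4, the 2 PAC samples, up to 0.0351), Rbp7 (PAC 1, the 2 PAC samples, up to 0.0177), Abcg8 (BPAC 1, the 2 PAC samples, up to 0.0108), Abcg5 (BPAC 1, 2 or 4, PAC 1, 2, 3 or 4, the 2 PAC samples, up to 0.0567) and Slco2b1 (BPAC 1, 2 or 3, PAC 2, 3 or 4, the 2 PAC samples, up to 0.0343).

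By list, 12 of the 32 absorptive genes fell further in BPAC than in PAC, among them Sis (-5.01 in BPAC and -1.91 in PAC), Guca2a (-3.03 and -1.09) and Slc5a8 (-3.5 and -1.52). Ppara (-2.81 and -0.66) was lower too. Of 27 interferon and antigen presentation genes 5 were lower in BPAC, B2m, Irf7, H2-T23, Tap2 and Tapbp. Il18 fell in BPAC (-2.23) and was at 0.24 in PAC (difference -2.47, adjusted p = 5.50e-06). Of 26 ERK genes, Etv4 (1.06, adjusted p = 0.00214) and Spry4 (1.5) were higher in BPAC, and Dusp6, at 0.79 in BPAC and 0.00 in PAC, missed the threshold (adjusted p = 0.0285). Of 22 mitosis genes 5 were higher, with Bub1 (0.84) and Ccnb1 (0.81) the most. None of the 23 Wnt target genes differed from PAC, and Sp5 changed by 2.75 in BPAC and 2.33 in PAC (difference 0.42, SE 0.39). The differences of Guca2a, Ppara, H2-T23, Tapbp, Il18, Spry4 and Ccnb1 passed without each BPAC or PAC culture and without the 2 PAC samples. Those lost without 1 or more of these, given by culture number with the highest adjusted p, were Sis (BPAC 1 or 4, PAC 3 or 4, up to 0.0221), Slc5a8 (BPAC 1, PAC 3 or 4, up to 0.018), B2m (BPAC 1, 2 or 4, PAC 1, 3 or 4, up to 0.0371), Irf7 (BPAC 1, PAC 3, the 2 PAC samples, up to 0.0153), Tap2 (BPAC 1 or 4, PAC 3 or 4, up to 0.0165), Etv4 (BPAC 1, up to 0.0142) and Bub1 (BPAC 1 or 4, PAC 1 or 3, the 2 PAC samples, up to 0.0165). Of 52 genes named for a difference from PAC or found among the lists, 33 passed without the 2 PAC samples, 22 to 47 without single BPAC cultures and 23 to 40 without single PAC cultures, all with the same sign. Without donor Col287 24 passed and without donor Col312 11, with counts summed by donor 23, in duplicate 1 alone 20 and in duplicate 2 alone none.

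**Figure D5:**
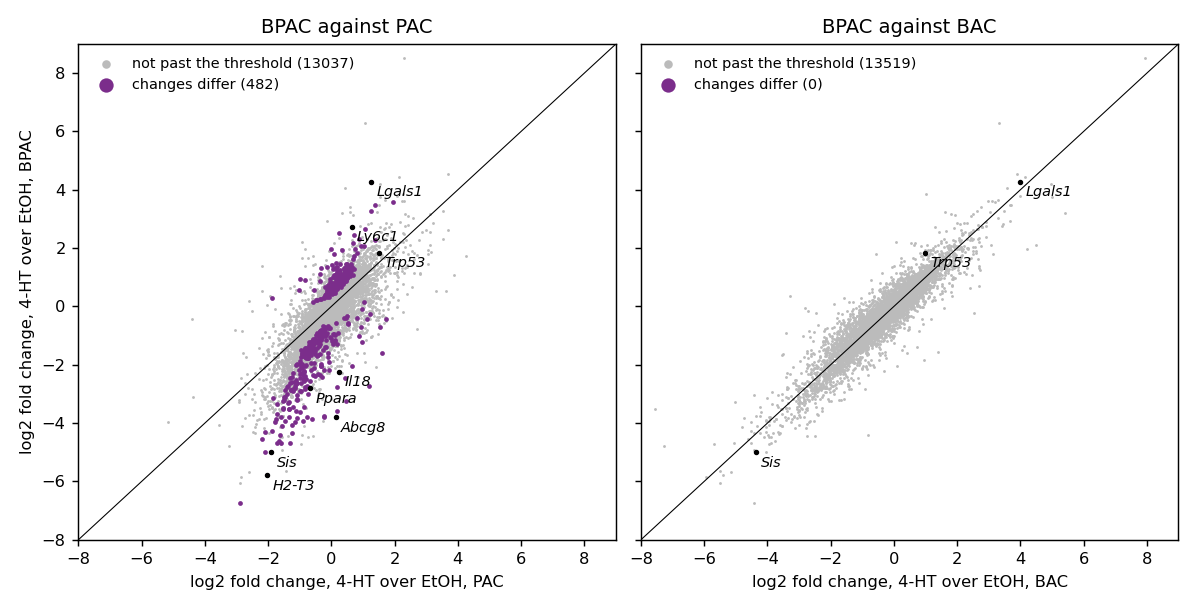
The log2 fold change (4-HT over EtOH) of each gene in BPAC organoids against that in PAC (left) and BAC organoids (right), with a line at equal change. The 482 genes whose change differed from PAC are purple and 462 of them had the larger absolute change in BPAC, and no gene passed against BAC.

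The 2 donors did not differ in their 4-HT change past the threshold for any gene by edgeR (870 of 13519 at an unadjusted p under 0.05). The 2 duplicates did not either (306 at an unadjusted p under 0.05). Both counts were also 0 by limma-voom and by DESeq2. With the culture as a replicate block both stayed at 0, but 1799 genes for the donors and 648 for the duplicates had an unadjusted p under 0.05 (edgeR). The main test leaves out the pairing by culture, so a count of 0 does not show equal changes. On simulated data made for the comparison with PAC, which has 4 cultures per genotype and so more samples than these 2 tests, a difference between changes was recovered by edgeR for 47.8% of genes changed 2-fold and 81.8% of those changed 4-fold. Those data had 200 changed genes and no pairing by culture. The 4-HT sample of Col287 duplicate 2 lay nearest the EtOH samples on the first principal component, at 30.03 against 47.4 to 67.2 for the other 3. The Trp53 transcript was lowest in it among the 4-HT samples, at 148 CPM against 190 to 227.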

How the data were processed

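Bulk RNA of 28 organoid samples was analysed from 1 table of read counts per gene that the authors deposited, with no normalization. Per the submitters' processing notes, reads were trimmed with Trimmomatic 0.39 and aligned with STAR 2.5.2b to GRCm38. The counting program, its annotation and its use of strand are not given in the sources used here. The table lists 13519 genes, none with fewer than 116 reads over all samples.

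Counts were TMM-scaled and fitted with edgeR 4.0.16 (R 4.3.3), as a quasi-likelihood test over all 28 samples in 8 groups (each genotype with each treatment), p-values adjusted by Benjamini-Hochberg over 13519 genes and a threshold of 0.01. CPM values are TMM-scaled, and fold changes are fitted log2 values with edgeR's default prior count of 0.125. Differences between genotypes, donors and duplicates were contrasts of the same kind. Samples of 1 culture share donor and duplicate number, and their deviations from the group means correlated at 0.372 to 0.532, against at most 0.199 with other cultures, so the culture was also fitted as a replicate block. Alternatives used limma 3.58.1 and DESeq2 1.42.0, other scalings, summed or thinned counts, and subsets of samples.

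Named genes were the 3 targeted genes, members of the gene lists, the 15 largest rises and falls among protein-coding genes with a mean of at least 10 reads and arms that did not overlap, and the 5 largest differences from PAC in each direction. Results of a few list members are not reported here. Gene lists and members were chosen with earlier results of these data known. The duplicates are passages of the same donor's organoids, so p-values rest on 2 donors. On simulated counts for the BPAC comparison edgeR recovered 35.8%, 70.1% and 93.9% of genes changed 1.5-fold, 2-fold and 4-fold. The simulations changed 200 genes and drew each sample on its own, with no shared culture. In the data 6089 genes passed and cultures were shared, so these shares are no measure of recovery there. Gene positions come from the GENCODE annotation of GRCm38, and promoter windows from RefSeq.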

Additional observations from a re-analysis of the deposited data

Results flagged for a closer look

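Among 496 sets of 4 samples (the EtOH or the 4-HT samples of 248 named genes), 29 held a sample far from the other 3 by Dixon's criterion at the 95% level, in which the gap to the nearest other sample is divided by the set's range. That is 5.85% of the sets, and chance gives about 1 in 20.

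In 9 of the sets it was the 4-HT sample of Col287 duplicate 2, with gaps of 0.830 for Cdkn1a, 0.963 for Abcg5, 0.884 for Lama3, 0.962 for Pmaip1, 0.879 for Id1, 0.948 for Espn, 0.856 for Ldha, 0.943 for Il15 and 0.953 for Scn2b. The EtOH sample of Col287 duplicate 2 stood apart by 0.873 for Hmcn1 and 0.961 for Etv5. The EtOH sample of Col312 duplicate 1 stood apart by 0.926 for Arhgap45, 0.981 for Notum, 0.878 for Tead2, 0.837 for Msx3 and 0.846 for Pou2f3. The 4-HT sample of Col287 duplicate 1 stood apart by 1.00 for Ckmt2, 0.963 for Ccnb1, 0.837 for Foxa2 and 0.930 for Pcolce2. The EtOH sample of Col312 duplicate 2 stood apart by 0.919 for Gm8909, 0.904 for Enpep, 0.848 for Cdkn2b and 0.950 for Anpep. The EtOH sample of Col287 duplicate 1 stood apart by 1.00 for Ehd3 and 0.946 for Mki67. The 4-HT sample of Col312 duplicate 1 stood apart by 0.869 for Cpt1a. The 4-HT sample of Col312 duplicate 2 stood apart by 0.839 for Braf and 1.00 for Slco2b1.

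For 41 of the named genes the 4-HT change differed between BPAC and PAC organoids (adjusted p under 0.01, edgeR's quasi-likelihood test of the difference). In log2 units the change was higher in BPAC by 3.03 for Lgals1, 2.26 for Arhgap45, 2.16 for Rbp7, 2.09 for Nptx2, 2.08 for Ly6c1, 1.61 for Rgcc, 1.5 for Spry4, 1.06 for Etv4, 1.0 for Tgfb1, 0.84 for Bub1, 0.81 for Ccnb1, 0.74 for Ly6a and 0.66 for Wdr43. The difference, BPAC minus PAC, was -3.94 for Abcg8, -3.87 for Slco2b1, -3.77 for H2-T3, -3.73 for Abcg5, -3.71 for Nr2e3, -3.38 for Cyp2c68, -3.1 for Sis, -3.08 for Slc6a4, -2.97 for Anpep, -2.94 for Enpep, -2.9 for Gm8909, -2.47 for Il18, -2.15 for Ppara, -1.97 for Slc5a8, -1.94 for Guca2a, -1.44 for Pdzk1ip1, -1.26 for Hpgds, -1.2 for Cdhr5, -1.2 for Tapbp, -1.15 for Cpe, -1.12 for Irf7, -1.03 for H2-T23, -1.01 for Itgb6, -0.99 for Tap2, -0.97 for Cxcl16, -0.89 for Myo1a, -0.84 for B2m and -0.56 for Dcxr. The values of Slco2b1, with 2 reads in all 4 BPAC samples with 4-HT, and Nr2e3, with 1 to 6 reads in each, are fitted ones that depend on the prior count, and neither is a bound.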

How the results depend on the processing

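Of the 6089 genes called with 4-HT, none had the opposite sign under any alternative, except 1 gene without donor Col312. The count was 6076 by limma-voom, 6522 by DESeq2 and 7358 with the replicate block, which kept 6033 of the calls. Among the genes named, the pairing of the samples by culture ended 1 call (Il1rn) and added 10 among the 32 that had not passed. With 1 culture or donor, or the 2 PAC samples, left out it ran from 4076 to 6012, with 2027 to 2950 rises and 2003 to 3062 falls. Duplicate 2 alone gave 2997 calls (1452 rises and 1545 falls). Library size alone left 2038 falls and ended the call of 18 of the 216 named genes that passed. Of those 216 genes 175 kept their call without each culture in turn. The call was lost for 46 without donor Col287, 42 without donor Col312, 16 in duplicate 1 alone, 73 in duplicate 2 alone, 21 with counts summed by donor and 37 in the 8 BPAC samples alone.

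The difference from BAC was 1 gene by DESeq2, higher in BPAC, and with 1 culture or donor left out 0 to 1, higher in 0 to 1 and lower in 0. The difference from PAC was the least stable count. It was 1233 (630 higher, 603 lower) at a threshold of 0.05, 895 (468 and 427) by DESeq2, 1165 (516 and 649) with the replicate block, 174 (62 and 112) with counts summed by donor, 175 (38 and 137) in duplicate 1 and 1 (0 and 1) in duplicate 2. The fits with the block and with counts summed by donor take the donor labels of the 4-HT samples of PAC duplicate 1 as given, and those labels are in doubt. Library size alone left 143 higher, and leaving out the 2 PAC samples 140. Without donor Col287 it was 196 (69 and 127) and without donor Col312 118 (51 and 67). With single BPAC cultures left out it ran from 167 (75 and 92) to 610 (267 and 343), and with single PAC cultures from 195 (93 and 102) to 400. Leaving out single PAC or BAC cultures was added after seeing the data. The cause was not tested.

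Among the genes named, changes of sign were seen only for genes that did not pass, with log2 fold changes given here. By limma-voom Cdkn2a was at 0.060. With library size alone Braf was at 0.20, Cdkn2a was at 0.12, Klf5 was at 0.082 and Ldha was at 0.13. With the replicate block Cdkn2a was at 0.17. In duplicate 1 alone Areg was at -0.14, Ereg was at -0.024, Cdkn2a was at 1.17, Muc2 was at 0.055 and Anxa1 was at -0.18. In duplicate 2 alone Wif1 was at 0.064, Cdx2 was at 0.090 and Id1 was at 0.061. Without donor Col287 Braf was at 0.008, Areg was at -0.27, Ereg was at -0.11, Muc2 was at 0.18, Ldha was at 0.23 and Rbp7 was at -0.076. Without donor Col312 Cdkn2a was at 0.16. In the 8 BPAC samples alone Braf was at 0.019. In the 8 BPAC samples alone with a replicate block Braf was at 0.022 and Cdkn2a was at 0.19. With each culture left out in turn the values ran, for Wif1 from -1.15 to 0.007, Ldha from -0.22 to 0.057, Braf from -0.048 to 0.038, Areg from -0.22 to 0.19, Ereg from -0.11 to 0.32, Muc2 from -0.52 to 0.076, Anxa1 from -0.14 to 0.28, Rbp7 from -0.045 to 0.47 and Cdkn2a from -0.71 to 1.0.

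Depth limits the genes with few reads, and counts per gene show neither the alleles nor exons.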

Other observations

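Gene families taken by symbol after their values were seen, some of whose members are also in the lists, are given here by count. Of 38 cytochrome P450 genes 27 fell and none rose (median log2 fold change -2.03), all 10 carboxylesterases fell (-2.88), and 8 of 9 UDP glucuronosyltransferases fell (-1.98). These families modify drugs, steroids and bile acids. Of 245 solute carriers 107 fell and 38 rose (-0.34), and of 35 ATP-binding cassette transporters 19 fell and 3 rose (-0.66). Of 13 transcripts encoded by the mitochondrial genome 11 fell (-1.51), with 21 of 37 nuclear complex I genes (-0.37).

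All 7 chaperonin subunits rose (0.86), with 17 of 19 nucleoporins (0.98) and 19 of 20 cytosolic aminoacyl-tRNA synthetases (0.66). Of 77 mitochondrial ribosomal proteins 33 rose and 44 did not pass (0.30), and of 77 cytosolic ribosomal proteins 27 rose and 50 did not pass (0.38). None of these 5 families held a gene that fell. Of 37 proteasome genes 24 rose and 2 fell (0.40). Of all genes tested 22% rose and 23% fell.

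The Y-linked transcript Ddx3y was at 6.38 to 11.7 CPM in the 4 samples of Col287 and at 30.9 to 39.8 CPM in the 3 samples of the PAC donor Col290 other than 4-HT duplicate 1. In that sample Xist was at 25.2 CPM and Ddx3y at 13.8 CPM, and in the matching sample of Col313 they were at 22.03 and 12.96 CPM.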
